A study of Mus musculus with 19 samples.

Results

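The direct comparison of NVP-AAM077 (NVP) with the compound whose titles read Ro25 was made on 9 of the 19 arrays of the series, 4 for NVP and 5 for Ro25, and covered 19205 genes. The arrays were chosen by their titles alone, and no measured value entered the choice. All of them carried RNA of dissociated mouse hippocampal neurons at day 21 in culture, exposed for 6 h to 100 nM NVP-AAM077 or to 1 µM of the compound that the treatment labels call Ro25-4891. The remaining arrays were 5 of vehicle-treated neurons and 5 of neurons given 100 µM AP5. They enter below for the shared estimate of spread, as a background level and as a yardstick of size. No allele or transgene is named, strain and animal age are not given in the labels used here, and nothing says that replicates came from separate cultures. What the p-values and intervals capture is thus the variation among these arrays, and how much of it is technical is not known.

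NMDA receptors are glutamate-gated, calcium-permeable channels built from GluN1 (Grin1) with GluN2 or GluN3 subunits. GluN2 subunits bind glutamate and set how long the channel stays open, and GluN2A and GluN2B are the main GluN2 forms of forebrain neurons. Calcium entering through these channels drives kinase pathways, ERK among them, that reach the nucleus and induce activity-regulated genes such as Bdnf, Npas4 and Nr4a1. AP5 competes with glutamate at NMDA receptors that contain GluN2 subunits. NVP-AAM077 also competes at the glutamate site, with some preference for receptors that contain GluN2A. A GluN2B-selective antagonist in common use has a name with the same prefix but another number, so the label does not settle which compound was applied. The doses were not matched. Each value below describes these treated cultures at these doses, not the subunits as such.

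Every array set neuron RNA in red against a common mouse reference RNA in green, and a level is the normalized log2 ratio of red over green. A difference is the mean NVP level minus the mean Ro25 level on that log2 scale. Across the 9 arrays the median red signal was 139 to 178, and 24924 to 28531 probes had red clearly over background. In the green reference channel alone, 0 genes were called between the groups and 1063 (5.54%) had an unadjusted p under 0.05. Excitatory neuron markers were well above background on all 9 arrays for 15 of 16 genes, and astrocyte markers for 17 of 17, so the cultures held glia beside neurons. In RNA from whole cultures, fewer cells of a type and less RNA per cell cannot be told apart. The arrays lay on slides of 4. NVP 2, NVP 4, Ro25 1 and Ro25 4 shared slide 3, NVP 1 and NVP 3 lay on slide 2 with an AP5 array, and Ro25 2, 3 and 5 lay on slide 4 with a vehicle array. Mean log2 ratios of the 17 astrocyte markers were 3.79, 3.92, 4.37 and 3.09 on NVP 1 to 4 and 3.83, 3.81, 2.91, 4.03 and 4.30 on Ro25 1 to 5. NVP 4 and Ro25 3 were the lowest of their groups, and values without them are given beside the results they move most.

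No gene was told apart between NVP and Ro25, and for most genes the intervals excluded differences of moderate size, with shares that depended on the processing. At a limma adjusted p under 0.05 the count was 0 of 19205 genes (0%), and the smallest adjusted p was 0.999983. At an unadjusted p under 0.05 there were 299 genes (1.56% of those tested, where a threshold of 5% was applied), 161 higher and 138 lower with NVP. The 4 NVP and 5 Ro25 levels did not overlap for 137 genes (0.713%), of which 72 were higher and 65 lower with NVP. The median size of a difference, regardless of sign, was 0.04 on the log2 scale, and the 5th and 95th percentiles of the differences were -0.11 and 0.13. An estimate of at least 0.32 in size on the log2 scale was found for 39 genes. The estimate reached 1.5-fold for 1 gene, Ptprz1, a receptor phosphatase of glial progenitors, at 0.71 (interval -0.06 to 1.47) over the 3 NVP and 4 Ro25 arrays that had a value, while its 4 probes gave -0.10 to 0.71.

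A missing call does not show that the compounds acted alike, so each gene's 95% interval was set against fixed sizes of difference. The median half-width of an interval was 0.167 on the log2 scale, which is 1.12-fold. Intervals excluded a 2-fold difference in either direction for 19148 genes (99.7%), a 1.5-fold difference for 18716 (97.5%) and a difference of 0.32 on the log2 scale for 15573 (81.1%). The smallest size depended on the processing: 0.32 was excluded for 9525 genes (49.6%) with the deposited log ratio, 9895 (51.5%) with log ratios scaled to 1 spread and 10338 (53.8%) with normexp on all spots. A 1.5-fold difference was excluded for 74.2%, 80.0% and 76.8% of genes in those settings. These are intervals gene by gene. Widened by Bonferroni so as to cover all genes at once, they excluded a 2-fold difference for 17016 genes (88.6%), a 1.5-fold difference for 9593 (49.95%) and a difference of 0.32 for 265 (1.38%). On slide 3, 2 NVP arrays met 2 Ro25 arrays without a change of slide, and 19141 genes could be compared. The difference there is that of slide 3, but its spread came from the fit to all groups with slide as a fixed block. These intervals thus do not rest on the slide 3 arrays alone. Gene by gene they excluded 2-fold for 18736 genes (97.9%), 1.5-fold for 17273 (90.2%) and 0.32 for 10022 (52.4%). In that fit 0 genes were called and 260 had an unadjusted p under 0.05.

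**Figure D1:**
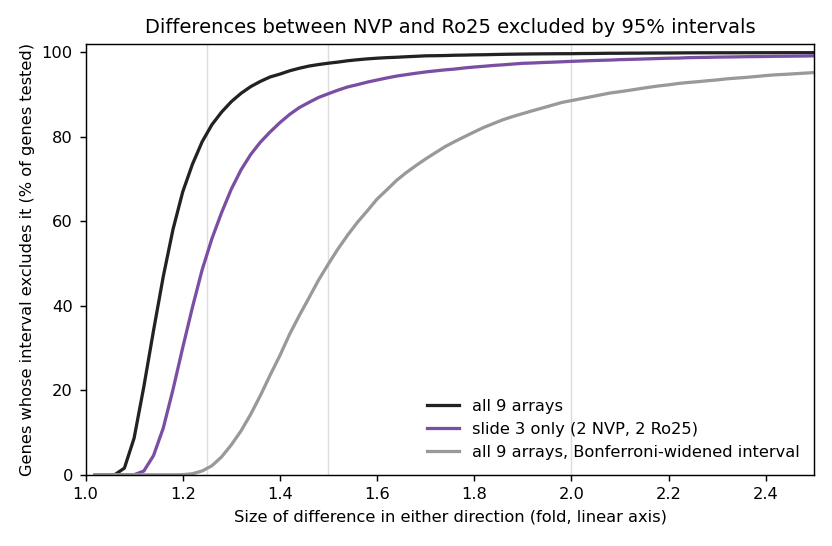
Share of genes tested (vertical axis, %) whose 95% interval for NVP minus Ro25 excludes a difference of a given size in either direction (horizontal axis, fold). The curve of all 9 arrays passes 81.1% at the leftmost grey line, which marks 0.32 on the log2 scale, and 97.5% at 1.5-fold. The curve of the slide 3 difference lies lower at 52.4% and 90.2%, with its spread taken from the fit to all groups. The Bonferroni-widened curve reaches 88.6% at 2-fold.

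Comparisons with vehicle from the same fit give a background level at this precision. AP5 minus vehicle gave 3462 called genes (18% of those tested) at a median standard error of 0.08, the same as the 0.08 of NVP minus Ro25. NVP minus vehicle gave 0 called genes (0%, with 1591 at an unadjusted p under 0.05), and Ro25 minus vehicle gave 0 (0%, with 1181). The median size of a difference was 0.11 for AP5 minus vehicle, 0.06 for NVP minus vehicle and 0.05 for Ro25 minus vehicle. The comparisons with vehicle share the vehicle arrays and are given side by side only. AP5 1 to 4 lay on slide 1, and vehicle 1, 3, 4 and 5 lay on slide 5. No slide held both AP5 and vehicle arrays, or both NVP and vehicle arrays. These comparisons are thus tied to slide, and the part due to slide was not tested.

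The receptor's own subunits were measured on all 9 arrays, and none passed the test. Grin1, which encodes the obligatory GluN1 subunit, read 1.35, 1.07, 1.13 and 1.03 on NVP 1 to 4 and 0.88, 0.85, 0.87, 0.91 and 0.73 on Ro25 1 to 5. The groups did not overlap, and the vehicle arrays, at 0.73 to 1.01, lay below all 4 NVP arrays and overlapped the Ro25 arrays. The mean was 1.14 ± 0.14 (SD, n = 4) with NVP and 0.85 ± 0.07 (SD, n = 5) with Ro25, a difference of 0.29 (SE 0.09, interval 0.11 to 0.48, limma adjusted p = 0.999983). That is 1.23-fold with a 95% interval from 1.08 to 1.39, which excludes 1.5-fold in this processing. It was 0.15 on slide 3 and 0.42 on the other slides, and it was -0.10 in the red channel alone, without the reference. It was 0.47 with normexp on all spots and 0.60 with the deposited log ratio, the latter itself past 1.5-fold, so the exclusion depended on the processing. The mm8 position of its probe is chromosome 2, 25118057 to 25118116.

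Grin2a, which encodes GluN2A, read 1.04, 1.10, 0.74 and 0.76 with NVP and 0.74, 0.91, 0.70, 0.95 and 0.38 with Ro25. These groups overlap, and the difference of 0.17 had an interval from -0.07 to 0.42, at most 1.34-fold. Grin2b, the GluN2B gene, read 2.32, 2.55, 1.87 and 1.74 with NVP and 1.65, 2.37, 2.24, 1.98 and 1.90 with Ro25. Its difference was 0.09 (interval -0.25 to 0.44), and 5 probes of the gene gave differences from -0.09 to 0.17. It was 0.33 on slide 3, -0.07 on the other slides and 0.27 without NVP 4 and Ro25 3. It was 0.59 with normexp on all spots and -0.12 with the deposited log ratio. Grin2c was the subunit gene with the widest interval, from -0.33 to 0.75 around 0.21, and the only one whose interval reached 1.5-fold. Grin2d differed by 0.06 (-0.17 to 0.29), Grin3a by 0.04 (-0.12 to 0.21) and Grin3b by 0.02 (-0.19 to 0.23). Other processing went past some of these bounds. Grin3a was 0.44 with normexp on all spots and 0.29 with log ratios scaled to 1 spread, and Grin2d was 0.34 in the red channel alone. All 7 estimates were above 0, as were 10306 of the 19205 genes tested. The median over the 7 subunit genes was 0.09 against 0.01 over all genes. The median lay between 0.05 and 0.44 over the processing alternatives, but single genes changed sign, among them the following. Grin1, Grin3a and Grin3b were below 0 in the red channel alone, and Grin2d was -0.07 with log ratios scaled to 1 spread and -0.12 with normexp on all spots. Grin3b was -0.23 on slide 3 and 0.25 on the other slides, and Grin3a was -0.04 on slide 3.

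**Figure D2:**
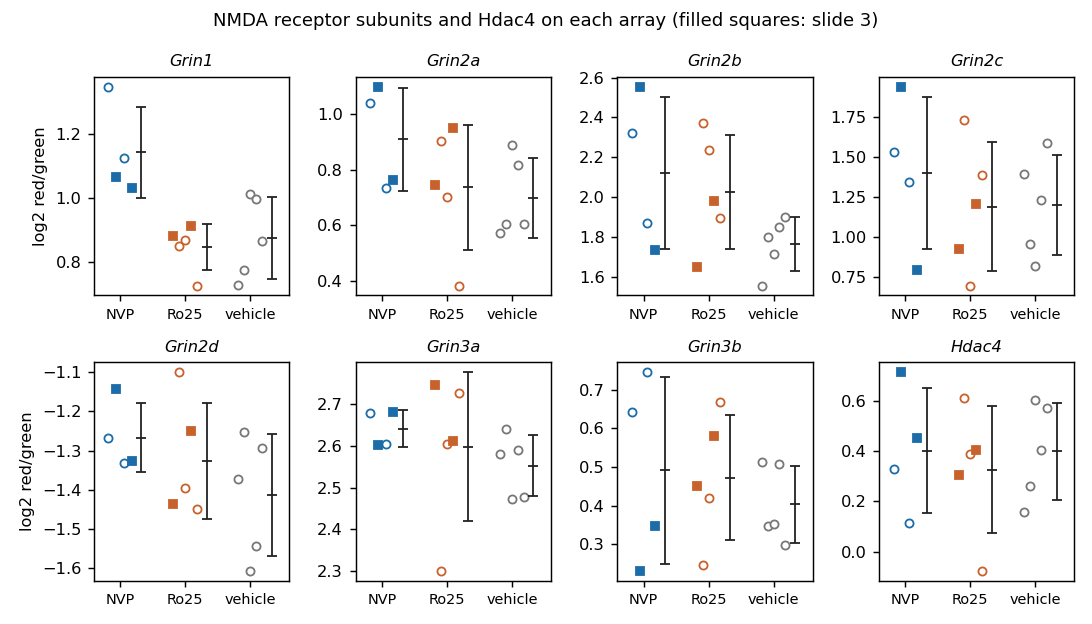
Normalized log2 ratio of red over green (vertical axes) of the 7 NMDA receptor subunit genes and Hdac4 on each NVP, Ro25 and vehicle array, with filled squares for arrays of slide 3, open circles for other slides and bars for mean ± SD. Grin1 is the only panel in which the 4 NVP arrays (1.03 to 1.35) lie above all 5 Ro25 arrays (0.73 to 0.91).

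The genes that differed most between AP5 and vehicle give a yardstick of size, in a comparison tied to slide. The NVP and Ro25 arrays do not enter the AP5 minus vehicle difference, but they entered the choice of genes through the shared estimate of spread and the probe filter. With AP5, 37 genes differed from vehicle by at least 2-fold at an adjusted p under 0.05, 18 higher and 19 lower. They were picked for those large values, and they were known from earlier results of these data. Between NVP and Ro25, 0 of the 37 were called, 4 had an unadjusted p under 0.05 (1.56% of all genes did) and 1 did not overlap (0.713% of all genes). Their intervals excluded 2-fold for 37 of 37 (99.7% of all genes), 1.5-fold for 32 (97.5%) and 0.32 on the log2 scale for 12 (81.1%). At the smaller sizes the intervals thus excluded less for these genes than for genes in general. The median size was 0.11 between NVP and Ro25 (0.04 over all genes), where it was 1.17 between AP5 and vehicle.

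Bdnf, which encodes brain-derived neurotrophic factor, read 2.08, 2.06, 1.86 and 2.35 on NVP 1 to 4 and 2.40, 2.17, 2.49, 2.09 and 2.07 on Ro25 1 to 5. The groups overlapped, and the difference was -0.16 (SE 0.14, interval -0.46 to 0.14), against -1.79 for AP5 minus vehicle in other arrays. The interval reached at most 1.37-fold, in the direction of higher Bdnf with Ro25. Its probe lies on chromosome 2 at 109524885 to 109524944 (mm8). Nr4a1, a nuclear receptor of the immediate early class, read -1.24, -1.30, -1.40 and -1.14 with NVP and -1.32, -1.54, -1.36, -1.38 and -1.50 with Ro25. Its difference of 0.15 had an interval from -0.04 to 0.34, against -1.45 for AP5 minus vehicle.

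Npas4, an activity-dependent transcription factor of neurons, had the highest estimate among the 37 genes. It read 0.82, 1.18, 0.71 and 0.98 on NVP 1 to 4 and 0.54, 0.77, 0.59, 0.67 and 0.19 on Ro25 1 to 5. NVP 3 lay below Ro25 2, so the groups overlapped at that point only. The difference was 0.37 (SE 0.14, interval 0.08 to 0.66, unadjusted p = 0.0139, limma adjusted p = 0.999983), which is 1.29-fold with an upper bound of 1.58-fold. With the deposited log ratio the estimate was 0.81, above that bound. It was 0.47 on slide 3, 0.25 on the other slides and 0.36 without NVP 4 and Ro25 3. The 5 vehicle arrays read 0.89 to 1.69 and AP5 -0.08 ± 0.09 (SD, n = 5), so the NVP mean of 0.92 ± 0.20 (SD, n = 4) and the Ro25 mean of 0.55 ± 0.22 (SD, n = 5) lay between the vehicle and AP5 means. Npas4 was well above background on 1 of 5 AP5 arrays. The probe lies on chromosome 19 at 4984833 to 4984892 (mm8).

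The other 3 of the 37 with an unadjusted p under 0.05 were Spred2, Pmaip1 and the unnamed transcript TC1651696. TC1651696 had the lowest estimate, -0.40 (-0.66 to -0.13), with -0.56 on slide 3. Ptgs2, the inducible cyclooxygenase, differed by 0.26 (-0.09 to 0.61), Arc, a regulator of glutamate receptor traffic, by 0.22 (-0.09 to 0.52), and Dusp6, a phosphatase of ERK, by 0.17 (-0.23 to 0.56). Dusp6 rested on 1 array: NVP 4 read 0.64 where NVP 1 to 3 read -0.06, -0.10 and -0.15, and without NVP 4 and Ro25 3 its difference was -0.02. Spred2, an inhibitor of ERK signalling, differed by 0.21 (0.01 to 0.40). Among genes higher with AP5, Icosl, a T cell co-stimulator ligand, differed by 0.11 (-0.13 to 0.34) between NVP and Ro25 against 2.06 for AP5 minus vehicle. NVP 4 read 0.07 where the other NVP arrays read 0.53 to 0.59, and without NVP 4 and Ro25 3 the difference was 0.22. B3galt5, a galactosyltransferase, differed by 0.01 (-0.19 to 0.21) and Kdr, a receptor of vascular endothelial growth factor, by 0.03 (-0.27 to 0.33). With normexp on all spots B3galt5 was 0.57 and Kdr 0.54, both above these intervals. B3galt5 was also 0.57 with log ratios scaled to 1 spread, so these bounds depended on the processing. Pmaip1, which encodes the pro-apoptotic protein Noxa, was the member without overlap. It read 0.13, 0.01, 0.20 and 0.22 with NVP and 0.42, 0.23, 0.49, 0.27 and 0.30 with Ro25, a difference of -0.20 (-0.38 to -0.01, unadjusted p = 0.0389). The nearest arrays, NVP 4 at 0.22 and Ro25 2 at 0.23, all but touched.

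**Figure D3:**
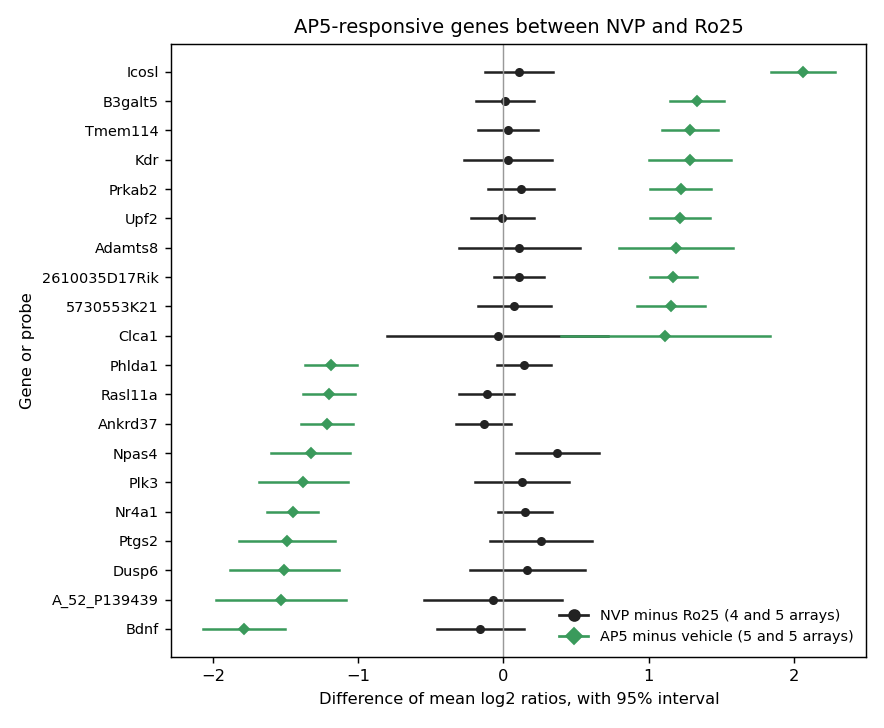
Difference of mean log2 ratios with its 95% interval (horizontal axis) for the 10 genes or probes that AP5 raised most and the 10 it lowered most. Circles are NVP minus Ro25 (4 and 5 arrays) and diamonds AP5 minus vehicle (5 and 5 arrays). As processed here, the circles lie between -0.16 for Bdnf and 0.37 for Npas4, while the diamonds run from -1.79 to 2.06.

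Over the 3462 genes called between AP5 and vehicle, NVP minus Ro25 had a correlation of 0.195 across genes with AP5 minus vehicle. The slope was 0.0387. The contrasts share no array, but AP5 5 shared slide 2 with NVP arrays and vehicle 2 shared slide 4 with Ro25 arrays. On slide 3 alone, which held no AP5 or vehicle array, the correlation was -0.0023, and over the other slides it was 0.225. These are descriptions across genes, which are not independent replicates. At that slope an AP5 effect of 1 on the log2 scale went with 0.0387 between NVP and Ro25.

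The title of the series names histone deacetylase 4. Hdac4, a class IIa deacetylase that shuttles between nucleus and cytoplasm with activity, read 0.33, 0.71, 0.11 and 0.45 with NVP and 0.30, 0.61, 0.39, 0.40 and -0.08 with Ro25. The groups overlapped widely. The difference was 0.08 (SE 0.13, interval -0.20 to 0.35), which excludes more than 1.27-fold in favour of NVP, against 0.46 for AP5 minus vehicle. Its probe lies on chromosome 1 at 93763383 to 93763442 (mm8). Among the related deacetylases, Hdac5 differed by -0.11 (-0.21 to -0.01, unadjusted p = 0.0389), Hdac7 by 0.05 (-0.06 to 0.16) and Hdac9 by -0.22 (-0.69 to 0.25). Hdac5 read 0.51 to 0.61 on the 4 NVP arrays and 0.69 to 0.73 on Ro25 1 to 4, but 0.55 on Ro25 5. Of the 15 genes of the list of class I and IIa deacetylases and their MEF2 partners, 14 excluded 1.5-fold (97.5% of all genes did), and Hdac9 did not.

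Of 31 gene lists, no list had a called member. The 27 immediate early genes tested had a median difference of 0.07 (0.01 over all genes), with 19 of 27 above 0, 1 at an unadjusted p under 0.05 (1.56% of all genes) and 20 of 27 excluding 1.5-fold, a lower share than the 97.5% of all genes. Fos, a subunit of the AP-1 transcription factor, differed by 0.25 (-0.16 to 0.65), and Klf2, a transcription factor, had the interval that reached furthest, from -0.33 to 1.18 around 0.43, with a second probe at 0.05. The 11 genes of ERK feedback had a median of 0.08, the 26 later activity-regulated genes 0.00 and the 8 nuclear-calcium survival genes 0.01. Among synaptic lists the median was 0.06 for 17 AMPA and kainate receptor and TARP genes, 0.05 for 21 postsynaptic scaffold genes, 0.03 for 22 presynaptic release genes and 0.03 for 12 GABA-A receptor genes. Other processing moved these medians, and the cause was not tested. With normexp on all spots they were 0.48, 0.40, 0.34 and 0.63 in that order, and with log ratios scaled to 1 spread 0.32, 0.31, 0.42 and 0.47, where the median over all genes was 0.02 and 0.01. With the deposited log ratio they were 0.04, 0.01, 0.01 and 0.01. As processed here the intervals excluded 1.5-fold for 21 of 21 scaffold genes and 12 of 12 GABA-A receptor genes (97.5% of all genes). For the GABA-A genes this did not hold with normexp on all spots, where their median itself was past 1.5-fold. Cacng4, which encodes a TARP that escorts AMPA receptors, differed by 0.19 (0.06 to 0.31) without overlap between the groups and 0.05 in the red channel alone.

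For the next lists, the share of all genes that excluded 1.5-fold was 97.5%, so high counts are common to most genes. The 22 genes of cholesterol synthesis and uptake all excluded 1.5-fold and had a median of 0.03, and the 12 FOXO-regulated genes all excluded 1.5-fold and had a median of 0.01. Of 21 pro-apoptotic genes 20 excluded 1.5-fold, with a median of -0.02, and of 9 anti-apoptotic genes 8 did, with Bcl2, which restrains apoptosis, at 0.12 (-0.08 to 0.32). The integrated stress response had the lowest median, -0.05, with 3 of 18 genes above 0. Its member with the smallest p was Trib3, a pseudokinase induced by stress, at -0.26 (-0.50 to -0.01). A second probe of Trib3 gave 0.01. The list median was -0.13 on slide 3 and -0.01 on the other slides.

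**Figure D4:**
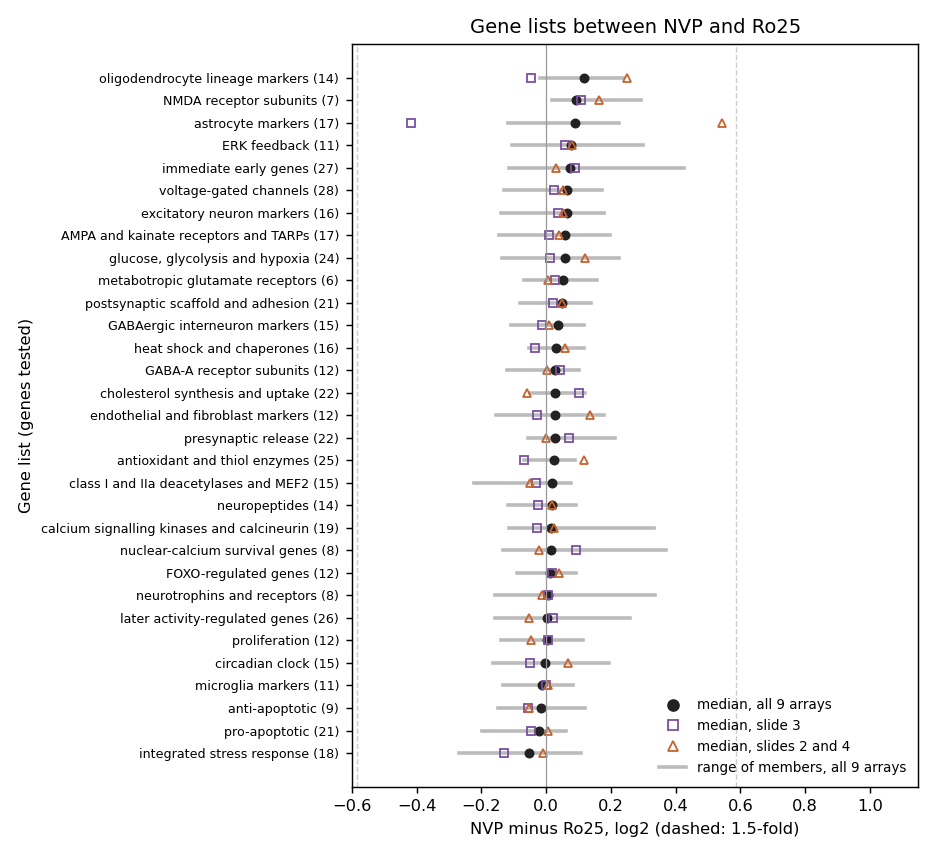
NVP minus Ro25 on the log2 scale (horizontal axis) for 31 gene lists, with the number of genes tested. Filled circles are medians over all 9 arrays, grey bars the range of members, open squares medians on slide 3 and open triangles medians on slides 2 and 4. All filled circles lie between -0.05 and 0.12, and the astrocyte markers have medians of -0.42 on slide 3 and 0.54 on slides 2 and 4.

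Among officially named genes whose groups did not overlap, those with the smallest unadjusted p-values are given next. None passed the adjustment, so these are values and not changes. Outside that rule, the unnamed transcript TC1624594, whose groups overlapped, differed by -0.50 (-0.78 to -0.23, unadjusted p = 0.0011). Caskin1, a postsynaptic scaffold protein that binds CASK, read 3.22, 3.25, 3.19 and 3.34 on NVP 1 to 4 and 2.88, 2.96, 2.94, 2.75 and 2.83 on Ro25 1 to 5. Its difference was 0.37 (interval 0.18 to 0.56, unadjusted p = 0.000587), 0.48 on slide 3 and 0.29 on the other slides. The gene's second probe gave 0.05. The red channel alone gave 0.07 and the deposited log ratio 1.14, so the size depended on the processing. St6gal2, a sialyltransferase, differed by 0.18 with a second probe at -0.03. Adora3, an adenosine receptor, differed by 0.17, and both it and St6gal2 were below 0 in the red channel alone, at -0.12 and -0.06. Tfeb, a transcription factor of lysosomal genes, differed by 0.21 (0.08 to 0.33), with 0.11 on slide 3.

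On the side lower with NVP, Csprs had the smallest p of all genes, 0.000505. Its signal was well above background on 0 of 4 NVP arrays and 1 of 5 Ro25 arrays, so no fold is given. Cxcr3 and the odorant receptor gene Olfr482 were likewise well above background on only 1 of 4 NVP arrays each. Ogt, which encodes the enzyme that adds GlcNAc to nuclear and cytoplasmic proteins, was measured on all 9. It read -0.88, -0.73, -0.81 and -0.70 with NVP and -0.45, -0.40, -0.28, -0.67 and -0.62 with Ro25. The NVP levels lay around the vehicle mean of -0.75 ± 0.11 (SD, n = 5). The difference was -0.29 (-0.50 to -0.08, unadjusted p = 0.00825), -0.15 on slide 3 and -0.41 on the other slides, and a second probe gave -0.25.

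The slides that did not share arrays gave different differences. Over 19138 genes the difference on slide 3 and the difference of NVP 1 and 3 from Ro25 2, 3 and 5 had a correlation of -0.484 and the same sign in 39.3% of genes. The low arrays in astrocyte markers lay on opposite sides of this split, NVP 4 on slide 3 and Ro25 3 on slide 4. The mean over 17 astrocyte markers differed by -0.42 on slide 3 and by 0.41 on the other slides, and by 0.02 over all 9 arrays. Without NVP 4 and Ro25 3 the correlation was -0.122 and the same sign was found in 45.2%. On the other slides 1 feature without a gene name, NAP014312-001, was called, at -0.64 (limma adjusted p = 0.0156). It was well above background on 2 of 4 NVP and 4 of 5 Ro25 arrays. It read -0.18 to -0.25 on Ro25 2, 3 and 5 but -0.74 and -0.78 on Ro25 1 and 4, beside -0.92 to -0.67 on the NVP arrays. On slide 3 it differed by 0.05.

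**Figure D5:**
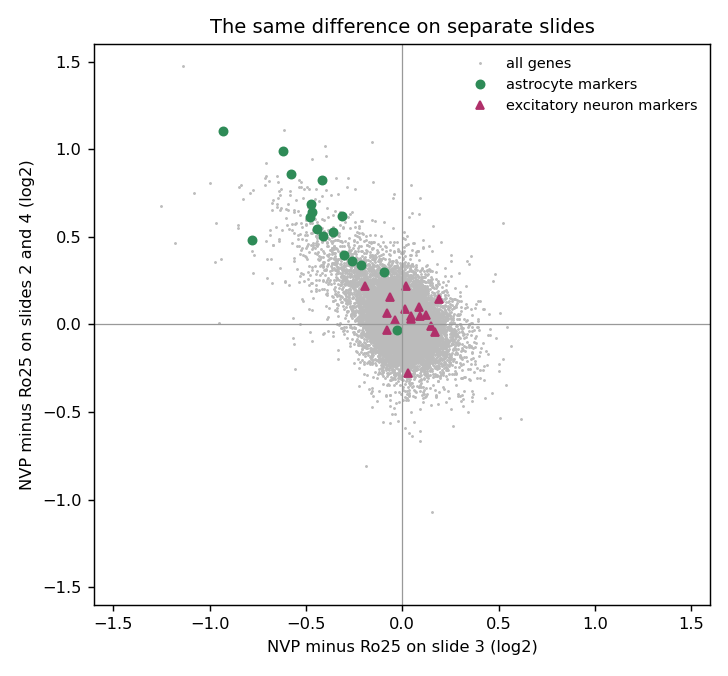
NVP minus Ro25 on the log2 scale for 19138 genes, on slide 3 (horizontal axis) and on slides 2 and 4 (vertical axis), which share no array. The 17 astrocyte markers (circles) lie in the upper left, for 16 of 17 below 0 on slide 3 and above 0 on the other slides, while the 16 excitatory neuron markers (triangles) lie around the origin.

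For 489 genes the interval reached 1.5-fold. Of these, 456 (93.3%) were well above background on all 9 arrays, as were 83.7% of all genes. Their median standard error was 0.28 against 0.08 over all genes. Within groups, over the 19 arrays, their level had a median absolute correlation of 0.879 with the astrocyte marker mean, where it was 0.429 over all genes. With the astrocyte mean as a covariate, intervals excluded 1.5-fold for 19092 genes.

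The 10 widest intervals, among genes well above background on all 9 arrays, included those of Gfap, Aldoc, Bcas1 and Xist. Gfap, the intermediate filament of astrocytes, read 5.95, 6.00, 6.26 and 3.27 on NVP 1 to 4 and 5.25, 5.6, 3.11, 5.88 and 6.29 on Ro25 1 to 5. NVP 4 and Ro25 3 lay far below the others in both groups. The difference was 0.14 with an interval from -1.39 to 1.68, a ratio of NVP to Ro25 from 0.381 to 3.20. It was -0.93 on slide 3, 1.10 on the other slides and 0.31 without NVP 4 and Ro25 3. Aldoc, a glycolytic enzyme of astrocytes, differed by 0.22 (-1.0 to 1.45), or 0.30 without those 2 arrays. Bcas1, a gene of maturing oligodendrocytes, differed by 0.25 (-1.33 to 1.83), or 0.41 without them. Cst3, Gstm1, C4b, Entpd2, Cav1 and Tafa1 were alike lowest on NVP 4 and Ro25 3 within their groups. Gstm1 had no value on NVP 2, NVP 3 and Ro25 1, and Cst3 none on NVP 3, so their fits rest on fewer arrays. Without NVP 4 and Ro25 3 the difference of Gstm1 went from -0.12 to 0.29 and that of Cst3 from -0.14 to 0.02. Of 17 astrocyte markers, 6 excluded 1.5-fold (97.5% of all genes) and 12 excluded 2-fold (99.7%). All 16 excitatory neuron markers excluded 1.5-fold as processed here, with a median difference of 0.06. That median was 0.38 with normexp on all spots and 0.32 with log ratios scaled to 1 spread.

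Xist, the RNA that coats the inactive X chromosome of females, had the interval that reached furthest. It read -1.12, -0.82, -1.29 and -2.85 on NVP 1 to 4 and -3.52, -1.08, -2.90, -1.19 and -1.37 on Ro25 1 to 5. One NVP array and 2 Ro25 arrays were low, and so were 2 vehicle arrays, at -3.29 and -2.87. AP5 1 and AP5 5 were low as well, at -3.23 and -2.97. Of the low arrays, AP5 5, NVP 4, Ro25 3 and vehicle 3 were also the lowest of their groups in astrocyte markers. The difference was 0.49 (-0.85 to 1.84), or 0.72 without NVP 4 and Ro25 3, and 4 probes gave 0.03 to 0.49.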

How the data were processed

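Agilent arrays read in both colours held 41174 gene probes. Spot intensity was extracted with Feature Extraction 9.5.3.1, per the file headers (11.0 per the submitters' processing notes), and probe positions are in mm8. The scanner's log10 ratio, as deposited, was background-subtracted and dye-normalized, per the file headers. The authors' processed values are log2 for 20674 probes, with correlations of 0.9986 to 0.9998 to the ratios computed here. Their medians per array were 0.0345 to 0.0478, and how they were centred is unknown.

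From the deposited mean intensity, spots marked as not uniform or as outliers were removed (122 to 239 per NVP or Ro25 array), the background was corrected with normexp (offset 50), and log2 ratios were normalized by loess within arrays with controls at weight 0. A probe entered if at least 4 of 19 arrays had its red signal well above background (28653 probes), and the brightest kept probe stood for a gene. Of the probes, 23483 were named by accession, 6678 by current symbol and 2887 by synonym in a RefSeq table of GRCm38.p6, and 8126 kept the file's name.

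Groups were compared in limma 3.58.1 (R 4.3.3, the data.table package at 1.17.8, statmod 1.5.0) fitted to the 19 arrays with 1 mean for each group, two-sided, with Benjamini-Hochberg adjustment. With slide as a fixed block the NVP minus Ro25 difference is that of slide 3, so genes needed all 4 of its arrays. The code was tested on simulated data. Named genes were the NMDA receptor subunits, class IIa deacetylases, the 10 smallest p-values each way among officially named genes without overlap, and the member of each list with the smallest p. They also included the 10 largest AP5 minus vehicle differences each way and the 10 widest intervals among genes above background on all 9 arrays. A few others (Arc, Fos, Klf2, TC1651696, TC1624594, Ptprz1 and NAP014312-001) were named after their values were seen. Members and lists were chosen with earlier results of these data known. Alternatives covered slide, background, normalization, channel, filter, probe choice, weights, an astrocyte covariate, a replicate block and each array left out.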

Additional observations from a re-analysis of the deposited data

Results flagged for a closer look

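The 85 named genes gave 170 groups of 4 or 5 arrays. Groups with fewer than 4 values, among them NVP for Gstm1, Cst3 and Cspg4, were passed over. The rest were examined for an array far from the others, and 11 were found. Chance flags about 1 group in 20. NVP 4 was the array in 5 of them: Gfap at 3.27 (others 5.95 to 6.26), Icosl at 0.0722 (0.53 to 0.59), Dusp6 at 0.64 (-0.15 to -0.06), Plk3 at -0.0134 (-0.62 to -0.52) and Clca1 at 2.39 (1.17 to 1.28). The astrocyte marker mean of that array was 3.09, the lowest of its group. Ro25 2 was low for B3galt5 at 5.64 (others 5.95 to 6.06) and Scg3 at 4.79 (4.97 to 5.04). Ro25 5 was low for Hdac5 at 0.55 (others 0.69 to 0.73) and Kcna2 at 0.60 (0.82 to 0.84). NVP 1 was high for 4933406B17Rik at 0.12 (others 0.02 to 0.03), and NVP 2 was high for Ppp3r1 at 3.58 (others 3.14 to 3.19).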

How the results depend on the processing

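Under each alternative for which a fit could be made, 0 genes were called, except that without slide 3 (NVP 1 and 3 against Ro25 2, 3 and 5) the count was 1. The count of genes excluding 1.5-fold stayed within 1.5 times its value except with the authors' processed table, at 11647 of its 12080 genes, and with Bonferroni-widened intervals, at 9593. It was lowest among the other processing choices for the deposited log ratio (14251) and for normexp on all spots (14748). The count excluding 0.32 on the log2 scale fell from 15573 to 9525 with the deposited log ratio. It was 9895 with log ratios scaled to 1 spread and 10338 with normexp on all spots. For the slide 3 difference it was 10022, in the fit to all groups with slide as a fixed block. It was 9576 on slides 2 and 4 and 9065 (of 12080) with the authors' processed values. Leaving out each array in turn gave 0 called genes each time and 18280 to 18667 genes excluding 1.5-fold. No named gene was called under any alternative, so none had a called direction that could turn, but the uncalled difference changed sign in 137 of 2260 recomputed values, in 48 of the 85 named genes. The medians of lists changed sign in 119 of 837, in 25 of 31 lists, and 34 of all sign changes came with slide as a fixed block. By size, 25 list medians and 141 gene values moved by more than the spread between arrays, with no call among them. The cause was not tested. Leaving out NVP 4 and Ro25 3, chosen after seeing the data, gave 0 called genes and 18635 excluding 1.5-fold. With the replicate number as a block, 0 genes were called, 224 had an unadjusted p under 0.05 and 18622 excluded 1.5-fold. Same-numbered arrays had correlations of -0.11, 0.59, -0.51 and -0.49 of their deviations from group means. With groups of 4 and 5 arrays, these values cannot decide whether the numbers pair the samples. Some arrays with other numbers were closer, NVP 4 and Ro25 3 at 0.82 and NVP 3 and Ro25 5 at 0.73. Others ran opposite, such as NVP 4 and Ro25 5 at -0.53. Whether such arrays shared a culture was not tested, and the main fit took all arrays as independent. The number of arrays limits the precision.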
